A study of Saccharomyces cerevisiae with 10 samples.

Results

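The first 10 min of a transcription shut-off in budding yeast were followed in 5 libraries taken at 0, 3, 6, 8 and 10 min after cells were moved from 24 to 37 C. All 5 libraries came from 1 strain, rpb1-1/caf1, which carries a temperature-sensitive allele of the largest subunit of RNA polymerase II and a deletion of CAF1. CAF1 (also named POP2, and replaced by HIS3 in the study's strain list) encodes a nuclease of the Ccr4-Not deadenylase complex. The strain is MATa and carries mutant ura3, his3 and leu2 alleles. By the sample labels every library, the 0 min one included, therefore carries both changes. The 0 min aliquot, drawn before the shift, is the reference for each value. There is 1 library per time point and no replicate, and a second strain or an unshifted course was not analysed here, so a loss of transcription and the move to 37 C cannot be told apart. The genes described are the yeast genes with an FPKM (fragments mapped to a transcript, per kilobase of its length and relative to all mapped fragments of the library) of at least 10 at 0 min, which are 5203 of the 6717 in the table. Among these genes the values nearest the limit were those of PEP7, at 10.0, and of RCE1, at 9.99, which was left out. A further 846 genes under the limit were measured well enough to be tested, which gave 6049 tested genes in all.

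An mRNA level is set by synthesis and decay, and once RNA polymerase II stops, the level of each transcript is expected to follow its decay. In the cytoplasm most yeast mRNAs first lose their poly(A) tail to Ccr4-Not and Pan2-Pan3, and are then decapped and degraded. A move to 37 C is also a heat shock in yeast, to which the transcription factor Hsf1 (chaperone genes) and the pair Msn2 and Msn4 (general stress genes) are known to respond. All 4 later libraries were compared with 0 min after each was divided by its summed level of ERCC spike-in RNAs, synthetic RNAs added in a fixed amount, relative to 0 min. Those factors were 1.05, 1.12, 1.25 and 1.05 at 3, 6, 8 and 10 min, so the 8 min library was scaled down most. The labels were checked against the strain's own genes. POP2 stood at 0.887, 0.846, 0.275, 0.372 and 0.248 FPKM in the 5 libraries. HIS3, which the study's strain list places at the deleted locus, was listed at 0 in all of them. The values thus do not show that marker, and the reason was not tested. The a-cell receptor gene STE2 was at 90.5 FPKM at 0 min, against 1.82 for the alpha-cell receptor gene STE3, whereas the a-factor genes MFA1 and MFA2, with coding sequences of 111 and 117 bases, were listed at 0 throughout.

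Several promoters are shown because their genes are among the 12 steepest rises or falls and because short sequence words linked to known regulators occur in them. They were picked for holding these words: GAANNTTC is in the promoters of 4 of the 12 steepest rises, and not in those of SSA4 and BTN2, the steepest of the 12. Each is the 250 bases before the start codon, read from the R64 reference, whose coordinates are given; the deposited values were made on another build (sacCer2) and carry no coordinates. In the promoters of 3 rising genes, capitals mark GAANNTTC, a pair of facing GAA units of the kind bound by Hsf1, and CCCCT (on either strand), the core of the element bound by Msn2 and Msn4. They lie at chrIV:806371-806620, plus strand for HSP42, at chrIV:974244-974493, minus strand for HSP78, and at chrII:444694-444943, minus strand for FES1.
HSP42: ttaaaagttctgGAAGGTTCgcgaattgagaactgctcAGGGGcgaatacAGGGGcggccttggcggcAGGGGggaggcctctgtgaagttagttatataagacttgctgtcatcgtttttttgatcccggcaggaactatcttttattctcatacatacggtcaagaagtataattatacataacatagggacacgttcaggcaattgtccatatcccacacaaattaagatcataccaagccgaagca
HSP78: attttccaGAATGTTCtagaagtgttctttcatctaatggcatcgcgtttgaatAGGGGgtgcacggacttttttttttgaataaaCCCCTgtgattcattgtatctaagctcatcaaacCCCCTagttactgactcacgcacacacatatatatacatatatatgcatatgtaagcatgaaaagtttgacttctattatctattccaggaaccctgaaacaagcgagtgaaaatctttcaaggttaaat
FES1: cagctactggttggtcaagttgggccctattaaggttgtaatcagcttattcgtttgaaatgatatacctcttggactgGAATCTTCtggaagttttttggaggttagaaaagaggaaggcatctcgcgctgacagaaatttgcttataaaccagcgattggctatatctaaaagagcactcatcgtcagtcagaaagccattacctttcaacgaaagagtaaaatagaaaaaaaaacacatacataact
In the promoter of the falling gene RPA34, which encodes a subunit of RNA polymerase I, capitals mark GATGAG and AAAATTTT, the words known from the PAC and RRPE elements of ribosome biogenesis genes. It lies at chrX:140187-140436, plus strand.
RPA34: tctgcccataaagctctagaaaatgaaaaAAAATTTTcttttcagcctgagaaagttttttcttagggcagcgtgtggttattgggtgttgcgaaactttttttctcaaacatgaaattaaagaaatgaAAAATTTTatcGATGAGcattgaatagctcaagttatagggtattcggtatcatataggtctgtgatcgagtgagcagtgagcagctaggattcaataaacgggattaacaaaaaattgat

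Most transcripts fell in the first minutes. Relative to 0 min, the 5203 genes had a median level of 82.3% after 3 min, and then of 66.9%, 56.6% and 65.6% in the 6, 8 and 10 min libraries. At 8 min 1957 genes were at or under 50% of their 0 min level, and at 10 min 1394 were. The rise from 8 to 10 min was seen in 4270 genes (82.1%) and rested on the scaling: without the spike-in factors 2424 genes (46.6%) were higher at 10 than at 8 min. A line was fitted to the log2 level of each gene over the 5 libraries (log2 of the scaled FPKM plus 1), and its slope was tested with limma, with p-values adjusted by the Benjamini-Hochberg method over all tested genes. The p-values measure scatter about a straight line within 1 course, not spread between cultures. The median slope was -0.0710 log2 units per min, with quartiles of -0.1092 and -0.0350, against a median of -0.0676 over all tested genes.

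**Figure D1:**
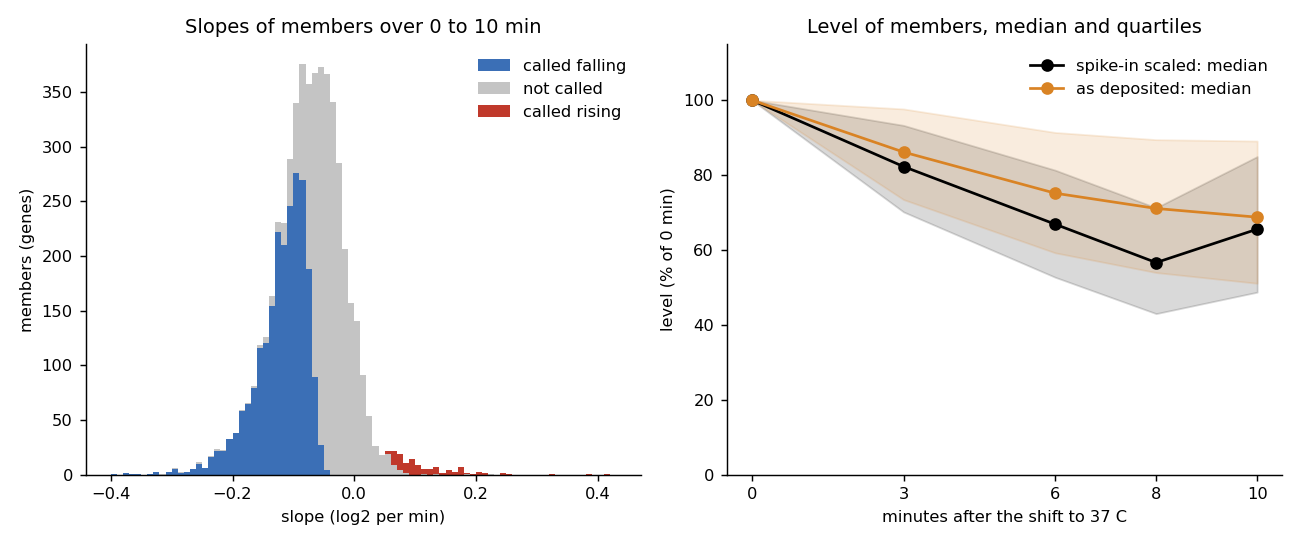
Left, number of genes (of the 5203 with at least 10 FPKM at 0 min) by slope in log2 units per min, with those called falling in blue, rising in red and neither in grey. Right, level in percent of 0 min against minutes after the shift, as median (line) and quartiles (band), with and without spike-in scaling. The scaled median reaches 56.6% at 8 min and stands at 65.6% at 10 min, whereas the deposited values give 71.1% and 68.8%.

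At an adjusted p under 0.05 (limma, Benjamini-Hochberg), 2311 of the 5203 genes (44.4%) fell and 107 (2.06%) rose. Over all tested genes 38.8% were called falling and 2.38% rising. The count of rises rested on the scaling. On the values as deposited 222 of the 5203 genes rose, and 255 with each library set to the same yeast total. Of the 107 rises, 106 were called under each of these scalings. Without regard to the fitted line, 4144 genes (79.6%) lay below 0 min in each of the 4 libraries that followed and 210 (4.04%) lay above it in each, against 74.9% and 5.01% of all tested genes. Both counts of calls lean on the 0 min library. Without it 191 genes fell and 27 rose, and 181 of the 2311 falls and 18 of the 107 rises were among them. In that fit 0 of the 2311 falls and 1 of the 107 rises had a slope of the opposite sign. Without the 10 min library 3832 fell. A selection that did not use the 0 min level alone, a mean scaled FPKM of at least 10, gave 4841 genes, of which 2098 fell and 129 rose.

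The rises were few, early and led by chaperone genes. Called rising genes had a median level 1.44-fold that of 0 min by 3 min, then 1.69-fold, 1.71-fold and 2.21-fold in the next 3 libraries. The highest level was at 10 min in 104 of the 107. These levels carry the spike-in factors, 1.25 at 8 min and 1.05 at 10 min, and the order without them was not tested. The median share of the log2 change over 10 min that was already made at 3 min was 47.9%. In 54 of the 107, the 5 libraries stood in time order without exception. Of the 107, 100 have an entry in the RefSeq table of R64. The 7 without one were counted as well, and 117 of the 2311 falling genes also lack an entry. Whether they share reads with overlapping genes was not tested. The paper left dubious and unverified reading frames out of its decay fits.

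SSA4, a heat-inducible cytosolic Hsp70 (R64 chrV:364589-366517), had the steepest slope of all 5203 genes. Its level was 59.6, 554, 913, 1038 and 1427 FPKM in the 5 libraries in order of time, a 23.9-fold rise, with a slope of 0.416 ± 0.056 (SE) log2 units per min and an adjusted p of 0.000620 (limma, Benjamini-Hochberg). Every later library lay above the 0 min one, which the choice of the 12 steepest rises required. Most of the gain on the log2 scale came before 3 min. BTN2, whose product gathers misfolded proteins, went from 167 FPKM to 1073, 1414, 1556 and 2091. It rose 12.5-fold, second among the 12 steepest rises of genes with at least 600 coding bases. SSA3, a close copy of SSA4, took a slower course at 55.7, 89.5, 139, 174 and 255 FPKM. Reads of such copies may be divided between them in counting, so the pair's separate values are uncertain.

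The other steep rises included further chaperones and genes of other roles. HSP42, a small heat shock protein that gathers aggregates, stood at 319, 975, 1247, 1310 and 1648 FPKM. HSP26, the other small heat shock protein, was the most abundant of the 12, at 1612, 2910, 4192, 4976 and 7059 FPKM, with the smallest adjusted p, 8.97e-05 (limma, Benjamini-Hochberg). HSP78, a mitochondrial disaggregase, rose 4.72-fold by 10 min. FES1, the nucleotide exchange factor of cytosolic Hsp70, stood at 273, 696, 872, 848 and 1092 FPKM. HSP82, one of the Hsp90 copies, stood at 750, 1766, 2170, 2394 and 3271 FPKM. ERO1, which drives disulfide formation in the endoplasmic reticulum, rose 4.14-fold. CIN5, a transcription factor of the Yap family, went from 20.3 FPKM at 0 min to 85.9 at 10 min, a 4.24-fold rise, and PIN3 and ICS2 rose 7.16-fold and 5.87-fold. Without the 0 min library, HSP42, HSP78, CIN5, ERO1 and FES1 no longer passed, with adjusted p-values from 0.0624 to 0.247 (limma, Benjamini-Hochberg), whereas the slopes of SSA4 (0.188) and HSP26 (0.177) still did.

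**Figure D2:**
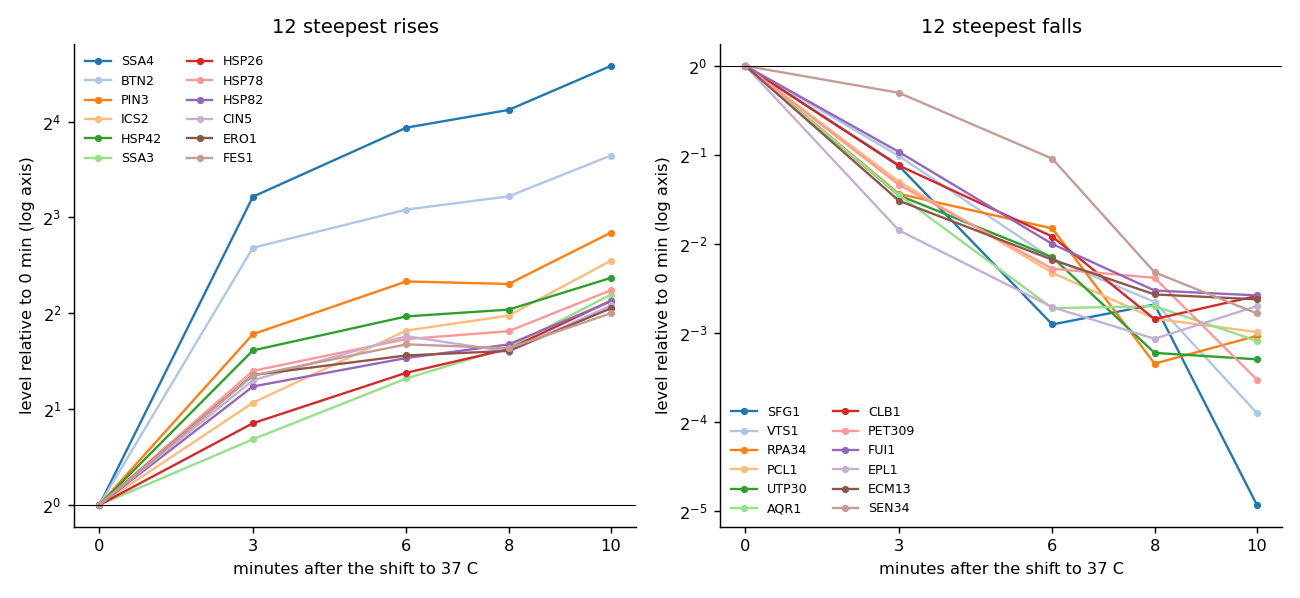
Level relative to 0 min (log axis) against minutes after the shift for the 12 genes with the steepest rise (left) and the 12 with the steepest fall (right) among those with at least 600 coding bases, 1 library per point. SSA4 reaches 23.9-fold at 10 min and SFG1 0.0329 of its 0 min level, and the steep rises make their largest step before 3 min in most genes.

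Among the gene lists, most members of the chaperone list rose, a list drawn up from known Hsf1 targets. Of 31 chaperone genes, 22 rose and 2 fell, and 25 were higher than at 0 min in each of the 4 libraries that followed. The median slope was 0.087 against -0.0710 over all 5203 genes, of which 2.06% rose and 44.4% fell. HSP104, a cytosolic disaggregase chosen after its values were seen, stood at 695, 1339, 1627, 1770 and 2427 FPKM. The Hsp70 genes SSA1 and SSA2 and the Hsp90 gene HSC82, also chosen after seeing their values, rose less, by 2.31-fold, 2.24-fold and 1.83-fold at 10 min, and are close copies as well. CPR7, a cofactor of Hsp90, and MGE1, the nucleotide exchange factor of mitochondrial Hsp70, fell, to 46.4% and 66.4% of 0 min. The count of rises was 5 of 31 without the 0 min library, and from 16 to 26 under the other settings. Another chaperone group moved with the bulk: 7 of the 8 genes of the TCP-1 chaperonin fell, and none rose (0 at an unadjusted p under 0.05). That count was 0 without the 0 min library, 4 without the 3 min library and 1 in limma without a trend. Of 7 genes of ribosome-associated chaperones 1 fell and 0 rose, with a median slope of -0.016. Under the other settings from 0 to 3 of these 7 fell.

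The general stress genes rose in smaller part. Of 50, 17 rose and none fell, with a median slope of 0.038, beside 2.06% rising and 44.4% falling over all 5203 genes. At an unadjusted p under 0.05 the count of falls was also 0, and the limma fit without the 10 min library called 6. SPI1, a cell wall protein, stood at 39.7, 245, 456, 493 and 695 FPKM, a 17.5-fold rise, steeper than that of BTN2 in a shorter gene of 447 coding bases. TMA10, a ribosome-associated protein, went from 367 FPKM to 1662 at 10 min. HSP12, a membrane stress protein, stood at 2289, 3093, 3492, 3295 and 4391 FPKM, CTT1, the cytosolic catalase, rose 1.82-fold, and GPH1, glycogen phosphorylase, rose 2.97-fold; these 3 were chosen after their values were seen. GLG2, a starter of glycogen synthesis, stood at 78.2% of 0 min at 10 min and did not pass. The number of rises was 34 on the values as deposited and 4 without the 0 min library.

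The 12 steepest falls came from genes of several roles. SFG1, a regulator of filamentous growth (R64 chrXV:904760-905800), stood at 29.4, 13.5, 3.93, 4.59 and 0.965 FPKM. Its level at 10 min was 3.29% of that at 0 min. The slope was -0.372 ± 0.048 (SE), with an adjusted p of 0.000528 (limma, Benjamini-Hochberg). This slope equals a halving of the FPKM plus 1 in 2.69 min, or a fitted ratio of 0.0758 over 10 min. The 10 min levels of SFG1 (0.965 FPKM) and VTS1 (1.20 FPKM) lie near the added 1, so their ratios are imprecise. VTS1, an RNA-binding protein that recruits Ccr4-Not, stood at 17.9 FPKM at 0 min and at 49.6%, 22.3%, 15.9% and 6.70% of that in the later libraries. RPA34, whose promoter is printed above, fell from 56.0 FPKM to 20.7, 15.8, 5.52 and 6.85. Every later library of these 3 genes lay below 0 min, as the choice of the 12 required, though not always below the library before it. UTP30, a ribosome biogenesis factor, fell to 10.2% of its 0 min level, and SEN34, a subunit of the tRNA splicing endonuclease, to 14.6%.

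Among the remaining steep falls, PCL1, a G1 cyclin of the kinase Pho85, stood at 123 FPKM at 0 min and at 40.5%, 19.9%, 14.0% and 12.5% of that in the later libraries, with a slope of -0.299 ± 0.031 (SE). CLB1, a mitotic cyclin, stood at 72.5, 33.4, 19.2, 10.1 and 12.1 FPKM. ECM13 was the most abundant of the 12 steepest falls, at 414, 145, 91.6, 69.9 and 67.3 FPKM. EPL1, a subunit of the NuA4 acetyltransferase, made most of its fall before 3 min, at 50.7 and then 14.1 FPKM, and ended at 7.82. FUI1, the uridine permease, fell from 108 to 18.1 FPKM, AQR1, a plasma membrane exporter, from 46.4 to 5.46, and PET309, a mitochondrial translation activator, from 17.7 to 1.54. Of these 12, UTP30, AQR1, PET309 and EPL1 did not pass without the 0 min library (adjusted p from 0.0624 to 0.309, limma, Benjamini-Hochberg).

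Over all 2311 falling genes the median ratio to 0 min was 0.737 by 3 min. It was 0.545, 0.438 and 0.479 in the next 3 libraries. The median fitted halving time of these genes, for the FPKM plus 1, was 8.89 min. The lowest library was the 8 min one in 1551 of them and the 10 min one in 612. These levels carry the spike-in factors. Without the factors the median level over the 5203 genes was 71.1% of 0 min at 8 min and 68.8% at 10 min. The cyclins and other cell cycle genes had the lowest list median, at -0.157. Of 24, 17 fell and none rose (0 at an unadjusted p under 0.05 too), and all 24 were below 0 min in every later library. Over all 5203 genes 44.4% fell, 2.06% rose and 79.6% were below 0 min in every later library. Without the 0 min library 3 of the 24 fell. CLB4, a B-type cyclin, was the slowest of the list, at 16.8, 13.8, 15.1, 13.7 and 13.4 FPKM, and did not pass.

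Genes for making ribosomes had lower slopes than genes of the ribosome itself. Of 159 ribosome biogenesis genes 133 fell, the median slope was -0.111, and 156 lay below 0 min in all 4 later libraries. IPI1, a factor for the large subunit, stood at 29.7, 16.3, 8.93, 7.30 and 5.37 FPKM, whereas BMS1, a GTPase of small subunit assembly, stood at 60.3, 57.1, 45.6, 44.3 and 56.1 and did not pass. Of 20 genes for subunits of RNA polymerases I and III, 15 fell, with a median of -0.120, and RPC17 fell to 14.9% of 0 min. Of 135 ribosomal protein genes 26 fell, with a median slope of -0.035 and a median level of 84.1% at 10 min. Over all 5203 genes 44.4% fell, and the median slope was -0.0710. The difference between the lists was not tested. The count for the polymerases was 3 without the 0 min library. The count for ribosome biogenesis was 29 without the 0 min library and that for ribosomal proteins was 2, and without the 10 min library they were 156 and 92.

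Ribosomal protein genes often come as pairs of near-identical copies, between which reads may be divided in counting. RPS9A, the less abundant copy of its pair, stood at 65.6, 28.7, 23.4, 15.3 and 15.2 FPKM, and its slope was -0.201. Its partner RPS9B, chosen for the pairing after its values were seen, stood at 1492, 1360, 1146, 992 and 1132 FPKM, with a slope of -0.052. RPL22B fell to 43.7% of 0 min at 10 min, with a slope of -0.123, and its partner RPL22A had a slope of -0.059. Over 58 pairs the less abundant copy had the lower slope in 36. Of 65 genes for mitochondrial ribosomal proteins 48 fell (median slope -0.084), beside 44.4% falling over all 5203 genes. RSM24 and MRPL38 were at 39.3% and 38.2% of 0 min at 10 min. The count was 4 without the 0 min library and 30 in limma without a trend.

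RNA polymerase II and the decay machinery were themselves among the measured transcripts. Of 11 genes for subunits of RNA polymerase II 9 fell, and RPB7 and RPB3 stood at 27.5% and 39.5% of 0 min at 10 min. RPO21 (RPB1), the gene that carries the temperature-sensitive allele, stood at 146, 125, 111, 101 and 148 FPKM, and its slope of -0.016 did not pass and turned positive on the values as deposited (0.002). Without the 0 min library 1 of the 11 passed, and 5 passed without the 8 min library. Of 37 decay genes 20 fell and none rose (0 at an unadjusted p under 0.05), beside 44.4% falling over all 5203 genes. The falls were 1 without the 0 min library, 13 without the 3 min library and 34 without the 10 min library. PAN2, the catalytic subunit of the other deadenylase, stood at 22.0, 13.4, 7.64, 6.37 and 7.85 FPKM. CCR4, the remaining nuclease of Ccr4-Not, stood at 56.9, 42.9, 39.5, 30.1 and 42.9 FPKM. PAB1, the poly(A)-binding protein, had a slope of -0.041, and DHH1, a helicase that aids decapping, one of -0.052; these 3 did not pass.

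Other lists had a share of falls near or above the 44.4% over all 5203 genes. Of 28 stress transcription factors 15 fell and 2 rose, and the direction differed within the list. SKN7 fell to 29.0% and SFP1, an activator of ribosome genes, to 34.0% of 0 min at 10 min, while RPN4, the activator of proteasome genes, stood at 219, 303, 308, 305 and 397 FPKM and rose. Of 32 proteasome genes 26 fell, and PRE9 stood at 48.7% of 0 min at 10 min. Of 18 pheromone and mating genes 10 fell, and STE12, the pheromone-responsive activator, stood at 17.1, 8.46, 3.93, 3.00 and 2.96 FPKM. STE14, which methylates a-factor, fell to 18.6%. Of 10 histone genes 8 fell, among them HTZ1, to 32.0%, and HTB2, to 48.0%. Without the 0 min library the falls were 0 of the stress factors, 0 of the proteasome genes, 1 of the mating genes and 1 of the histone genes, and no stress factor rose. The proteasome count was also 14 without the 3 min library, 16 without the 6 min library and 7 in limma without a trend. Under the other settings from 10 to 21 stress factors and from 7 to 16 mating genes fell.

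Genes of glycolysis had levels near those of 0 min, and other lists of metabolism and translation were mixed. Over all 5203 genes 44.4% fell and 2.06% rose. Of 18 genes of glycolysis and fermentation none was called in either direction, and none passed an unadjusted p under 0.05. The median level of that list was 103% of 0 min at 3 min and 113% at 10 min. PGK1, phosphoglycerate kinase, stood at 4077, 4355, 4644, 4256 and 5175 FPKM, with a slope of 0.026 ± 0.017 (SE), and TDH3, the major glyceraldehyde-3-phosphate dehydrogenase, at 10889, 11590, 11958, 11496 and 14102. The calls of this list rested on the scaling, with 15 of the 18 called rising when each library was set to the same yeast total. The list median of 0.008 was positive under each scaling, and was -0.009 without the 10 min library. Of 29 translation factor genes 13 fell and none rose, with a median slope of -0.046, and SUI2, a subunit of initiation factor eIF2, stood at 159, 133, 98.9, 76.2 and 72.6 FPKM. That count was 0 without the 0 min library and 21 without the 10 min library. None of 20 aminoacyl-tRNA synthetase genes was called, with 1 fall at an unadjusted p under 0.05, although 14 lay below 0 min in each later library, and 16 fell without the 10 min library. WRS1, which charges tryptophan tRNA, had the lowest slope of these, at -0.068. Of 32 cell wall genes 6 fell and 2 rose, and the risers were TIP1, at 426, 586, 718, 747 and 1008 FPKM, and CWP1, at 110, 156, 176, 164 and 207. Without the 0 min library none of the 32 was called, and 22 fell without the 10 min library. Of 37 genes of the respiratory chain and ATP synthase, 7 fell and 1 rose, with a median slope of -0.031, and 17 lay below 0 min in each later library. ATP20 stood at 47.6% of 0 min at 10 min. The riser was COX8, at 2.14-fold, whose coding sequence is only 237 bases, a length at which FPKM depends on the correction for fragment length.

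**Figure D3:**
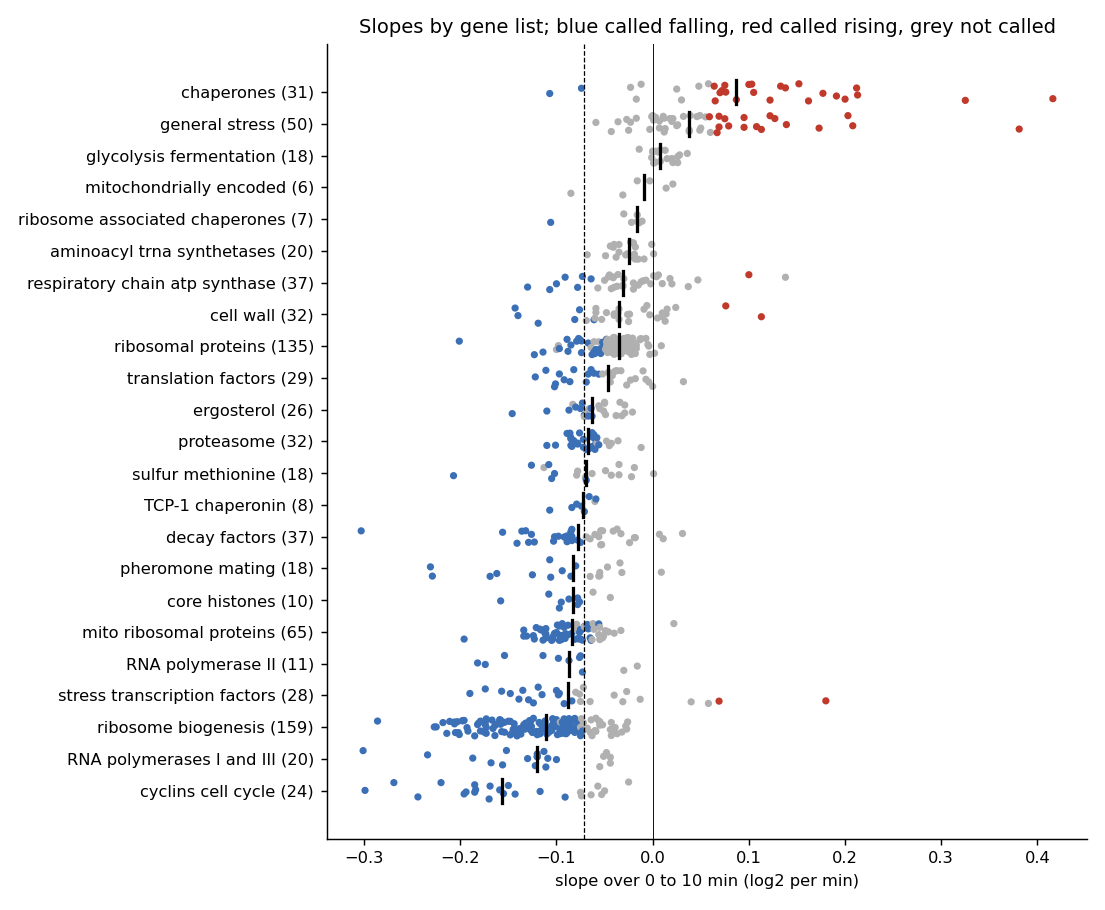
Slope in log2 units per min of each gene (points) in 23 lists, ordered by the list median (bar), with the number of genes measured at 10 FPKM or more in brackets; the dashed line marks the median of all 5203 genes, at -0.0710. Chaperones (median 0.087) and general stress genes (0.038) lie at the top, and cyclins (-0.157) at the bottom.

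The printed sequence words were more frequent in some lists than in all promoters. A window of 300 bases (250 before and 50 from the start codon) was searched on both strands in 5987 promoters. GAANNTTC was found in 11.8% of all promoters, in 38.7% of those of the chaperone list and in 25.3% of the promoters of rising genes. CCCCT was found in 21.6% of all promoters, in 66.0% of those of the general stress list and in 38.4% of those of rising genes. GATGAG and AAAATTTT were found in 20.4% and 9.02% of all promoters and in 89.9% and 76.1% of those of ribosome biogenesis genes. Among ribosomal protein genes, none of which rose, GAANNTTC was found in 22.2%. Genes with GAANNTTC had a median slope of -0.066, against -0.072 without it. Genes with CCCCT had a median slope of -0.052, against -0.076 without it, and genes with GATGAG one of -0.085, against -0.067. A match is a run of letters and not a known site, and the lists were drawn up from known targets of these factors.

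The share of optimal codons varied with the slope. The optimal and non-optimal classes were read from a pair of reporters used in the study, which encode the same protein with 9 codons of each class. They are shown because they define the classes.
OPT: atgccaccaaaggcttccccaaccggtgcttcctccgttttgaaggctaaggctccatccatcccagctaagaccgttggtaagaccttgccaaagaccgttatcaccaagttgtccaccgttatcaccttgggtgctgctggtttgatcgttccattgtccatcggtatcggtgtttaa
NON-OPT: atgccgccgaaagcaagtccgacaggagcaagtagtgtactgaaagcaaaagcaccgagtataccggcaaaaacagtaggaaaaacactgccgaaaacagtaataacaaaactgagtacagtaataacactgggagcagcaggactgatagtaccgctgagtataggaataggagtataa
Each gene's share is its number of optimal codons over its optimal and non-optimal codons together, in percent. All other codons were left out. The paper binned transcripts by a different published definition of optimality, so its bins are not these. Genes with a share under 40 had a median slope of -0.094 (n = 193), those from 50 to 59 one of -0.077 (n = 1793), and those of 80 and over one of -0.028 (n = 339). Of the first, 55.4% were called falling, and of the last, 14.7%. Across 4893 genes, which share the same 5 libraries and are not independent, Spearman's rho between the share and the slope was 0.358.

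The level at 0 min moved with the slope as well, with a rho of 0.336 over 5203 genes, and abundant genes hold more optimal codons. Within genes of 20 to 50 FPKM at 0 min, the median slope was -0.092 for a share under 50 (n = 903), -0.086 for 50 to 69 (n = 921) and -0.051 for 70 and over (n = 53). Within genes of 100 to 1000 FPKM it was -0.066 (n = 97), -0.046 (n = 515) and -0.030 (n = 432). The order by codon share was thus the same in both ranges of level. Coding length had a rho of -0.025 with the slope, but the median slope first fell and then rose with length. It was -0.039 in genes under 300 coding bases (n = 165) and -0.077 in the bin that starts at 600 bases (n = 1514). In the bin of the longest genes it was -0.061 (n = 774). The shares called falling were 23.6%, 51.1% and 33.3% in the same order. The level at 0 min was not held fixed across these bins, with medians of 138, 48.3 and 36.6 FPKM.

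**Figure D4:**
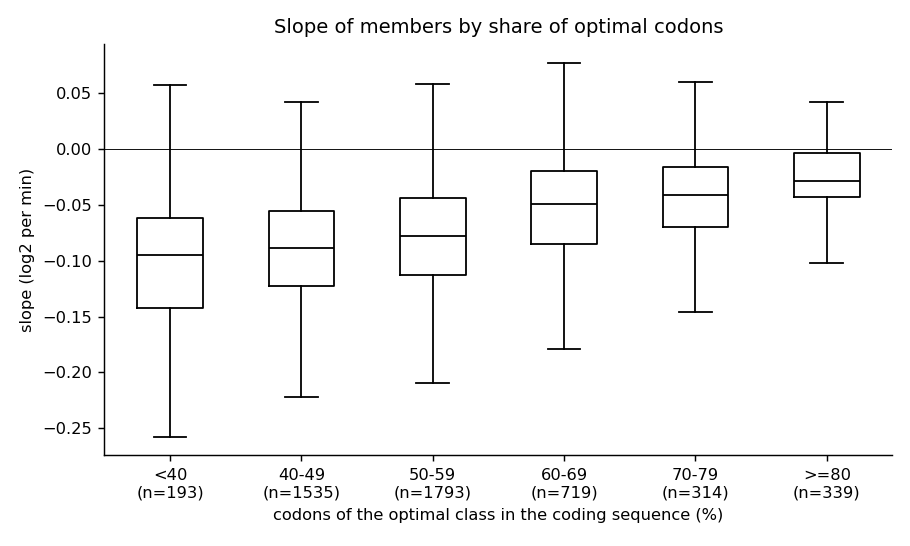
Slope in log2 units per min of genes with at least 10 FPKM at 0 min, by their share of optimal codons. The share is the percent of optimal codons among the optimal and non-optimal codons of the coding sequence. Boxes give median and quartiles, and whiskers reach to 1.5 interquartile ranges, with farther points not drawn. The median moves from -0.094 in genes under 40% to -0.028 in genes of 80% and over.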

How the data were processed

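RNA from 5 of the 10 time points of 1 course (0, 3, 6, 8 and 10 min) was used; the 5 later columns were not read, and 0 columns lacked a sample. Per the labels and methods, Bowtie 0.12.7 was used by the authors on the sacCer2 genome, and they deposited FPKM from Cufflinks 1.3.0. Which of 2 library kits was used, and whether counting used strand, are not given in the sources used here. The labels give 2 strain numbers for these cells, in the growth text and in the sample fields. In the study's strain list the number in the growth text is an rpb1-1 strain without the CAF1 deletion. The number in the sample fields is the strain with the deletion. Each column was divided by its summed ERCC FPKM relative to 0 min. Slopes of log2(FPKM + 1) on time were tested with limma 3.58.1 (R 4.3.3) with a trended prior, 3 residual degrees of freedom per gene, and Benjamini-Hochberg adjustment over genes with a mean of at least 1. Fold changes of named genes are ratios of scaled FPKM. The script was tested on simulated straight-line courses with independent noise per gene. That simulation held no shift shared by the genes of a library, so it does not bear on such shifts here. Steps of low values gave an estimate of 2860510 to 3986844 fragments per library (92.7% to 95.3% of low values within 0.1 of a whole fragment), and a median of 256 fragments per gene at 0 min and 142 at 10 min, over 3246 single-exon genes of at least 900 coding bases.

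Named were the 12 steepest falls and rises with at least 600 coding bases and all 4 later libraries on 1 side of 0 min, up to 2 falls and 2 rises per list, and fixed strain, decay and threshold genes; any other is said to be chosen after its values were seen. The genes, lists and tests were chosen with earlier results of these data known. Gene names, promoters and codons came from RefSeq R64 by systematic name (6025 of 6717 genes matched). Alternatives changed the scaling, pseudocount, filter, prior, members, motif window and libraries.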

Additional observations from a re-analysis of the deposited data

How the results depend on the processing

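No paired analysis was possible because no time point holds more than 1 library. Leaving out 1 library at a time gave from 212 to 3934 falling and from 46 to 169 rising genes over all tested, from 191 to 3832 falling and from 27 to 136 rising among genes of at least 10 FPKM, and median slopes from -0.099 to -0.051. The lowest counts came without the 0 min library, and the cause was not tested. With values as deposited, 256 tested genes and 222 of at least 10 FPKM rose, and with each library set to the same yeast total 289 and 255 did, with a median slope of -0.048. By construction these scalings lift the slopes. A limma prior without a trend left 70 rising genes of at least 10 FPKM. RPO21 turned positive as deposited (0.002), with the same total (0.008) and without 0 min (0.019), with a range from -0.065 to 0.019 when single libraries were left out. Setting the 8 min spike-in factor between those of 6 and 10 min, chosen after seeing the data, gave 2405 falls and 159 rises. Over all named genes and settings, single refits lost the call of a gene 59 times and gained one 20 times. Other definitions of the genes described, and the shorter promoter window, kept each count within 1.5 times. Precision is limited by depth, for genes near 10 FPKM and for levels near 1 FPKM, and by the single library per time point.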
